A study of Homo sapiens with 6 samples.

Results

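The human genes described here are the protein-coding genes of chromosome 19 that carry the name ZNF and a number. They were found by matching the RefSeq accession of each deposited transcript to its gene, dropping the suffix that marks a repeated accession, and taking genes on chromosome 19 (hg38) named ZNF, a number and at most 1 letter. Read-through genes with joined names were left out. This gave 246 of the 28439 genes in the table, from 940 transcript entries that were summed per gene.

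Gene expression was measured by RNA sequencing of total RNA from A549, an established human lung adenocarcinoma cell line. Every group had been infected with a lentivirus that expresses a short hairpin RNA and kept as stably expressing cells. The control group carried the control hairpin, and the groups shCBX8-1 and shCBX8-2 carried hairpins against CBX8, one of the chromobox proteins of the Polycomb complex PRC1. Each group had 2 libraries. The labels do not say what the number 1 or 2 in a group's name stands for, whether a line came from 1 clone, or whether libraries of 1 group were grown apart, so p-values describe a library-to-library spread that may be technical.

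Most ZNF genes of chromosome 19 encode proteins with a row of C2H2 zinc fingers that read DNA, often behind a KRAB domain. The KRAB domain recruits the co-repressor TRIM28, which in turn brings the histone methyltransferase SETDB1 and heterochromatin protein 1, and many of these proteins bind retrotransposons. The genes arose by tandem duplication, lie in clusters of near relatives, and carry the heterochromatin mark H3K9me3 over their own zinc finger exons. The study asks what changes when CBX8 is lowered, and the comparison here is how this gene family stood in each library.

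Total estimated counts were 64197784 to 67169537 per library, and 162 to 171 of the 246 genes had a count above 0. The family took 0.123 to 0.148% of all counts. Levels are given in CPM, counts scaled to a common library size by the trimmed-mean method. CBX8 (gene 57332) itself stood at 24.6 and 26.3 CPM in control, at 7.79 and 7.70 CPM in the first knockdown group, and at 17.7 and 13.8 CPM in the second. It fell in both groups, by 1.72 ± 0.16 and by 0.69 ± 0.15 on the log2 scale (SE, n = 2 against 2, edgeR adjusted p = 0.00703 and 0.0296). The 6 epithelial markers fixed for A549 summed to 22038 to 31537 CPM per library, and none was at 0. Of markers of other cells, CD3E, DCN and KDR were at 0 in all 6 libraries. The 7 leukocyte markers summed to 93.8 to 97.0 CPM in control, 140 to 143 CPM in shCBX8-1 and 110 to 116 CPM in shCBX8-2. The 6 markers of HEK293-type and neuronal cells summed to 340 to 343, 468 to 481 and 434 to 500 CPM. For 7 fibroblast markers the sums were 12.2 to 14.9, 8.94 to 9.64 and 5.61 to 6.19 CPM, and for 4 endothelial markers 1.88 to 2.74, 2.73 to 4.12 and 4.17 to 5.72 CPM. The part of these cell type markers in the results below was not tested.

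The family was only partly detected in A549. Of the 246 genes, 162 passed the low-count filter and were tested, 23 had some counts but too few, and 61 had 0 counts in all 6 libraries. In all, 24.8% of the family was at 0, against 8.81% of 261 ZNF genes on other chromosomes and 14.6% of the 1127 other protein-coding genes of chromosome 19. Tested members were also low, with a median of the mean level of 4.03 CPM against 16.4 CPM over all 17107 genes tested. In bulk RNA a smaller number of expressing cells and less RNA per cell cannot be told apart, and reads that fit several near-identical relatives may have been lost or split in the counting, whose rules the sources used here do not give.

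Detection varied with the position of the genes. Members were grouped into 16 clusters, counted from the short-arm end, with a new cluster wherever the starts of neighbouring members lay at least 1000000 bases apart. In cluster 12 (chr19:43530835-45076478) 23 of 24 members were tested and 0 were at 0 in all libraries. In cluster 16 (chr19:55476617-58489533) 52 of 59 were tested, and in cluster 2 (chr19:7069703-9786160) 14 of 15. Detection was far lower in 3 others. Cluster 3 (chr19:11483429-12633834) had 14 of 25 members at 0 in every library. Cluster 5 (chr19:19668153-24129968), which holds ZNF91, known to repress SVA retrotransposons, had 17 of 37 at 0, and cluster 15 (chr19:51571283-53580269) had 14 of 39. Together these 3 clusters held 45 of the 61 genes at 0. ZNF91, named for its role, had estimated counts of 53 and 32 in control, 20 and 66 counts in shCBX8-1, and 40 and 23 counts in shCBX8-2.

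**Figure D1:**
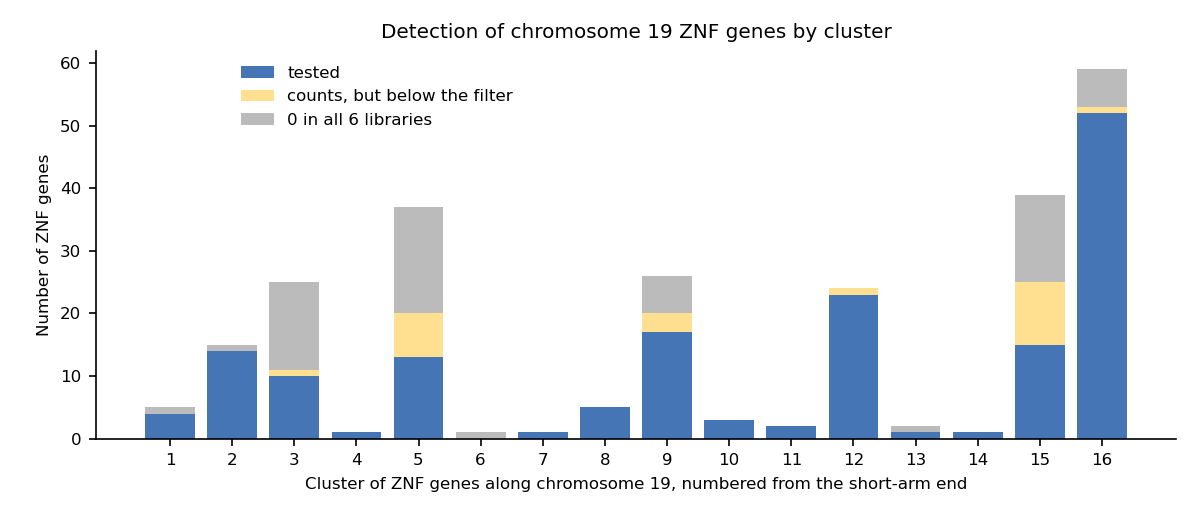
Number of chromosome 19 ZNF genes in each of the 16 position clusters (x axis, numbered from the short-arm end), split into genes tested, genes with counts below the filter, and genes at 0 in all 6 libraries. Clusters 3, 5 and 15 hold most of the genes at 0, whereas cluster 12 holds none.

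Levels can be compared between genes only per transcript length, here as mean CPM over 6 libraries per kilobase. The highest were ZNF580 at 44.3, ZNF787 at 34.9 and ZNF146, a protein made almost wholly of zinc fingers, at 31.8 CPM per kilobase. In CPM, ZNF580 averaged 55.4 ± 4.41 in control, 55.8 ± 15.7 in shCBX8-1 and 65.6 ± 9.34 in shCBX8-2 (SD, n = 2). ZNF146 averaged 115 ± 2.46, 118 ± 1.46 and 105 ± 32.5 CPM, and its shCBX8-2 libraries, at 82.3 and 128 CPM, lay on either side of the control values. Between neighbours in this order the gap was no wider than the SD in at least 1 group, so their ranks are not separated. ZNF580 lies inside the span of ZNF581, and ZNF146 inside that of ZNF565, so reads may be shared within each pair. The lowest tested were ZNF813, ZNF470 and ZNF737, each at 0 in at least 1 library, with at most 14, 32 and 12 counts.

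When both knockdown groups together were compared with control, no member passed. Of 162 members tested, 0 were called at an adjusted p under 0.05 by edgeR's quasi-likelihood test, where 6.82% of all genes tested were called (3.33% higher and 3.5% lower). With no adjustment of p, 14 members were under 0.05 (8.64%), 3 higher and 11 lower, against 23.7% of all genes. DESeq2 called 3 members and 2342 genes in all. The median log2 fold change of the members was -0.07 and that of all genes tested -0.04.

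The members with the smallest p in that comparison included 2 with all 4 knockdown libraries below both controls and with similar values in both groups. Genes picked by p tend to separate the groups in this way, and the share of all genes that did so was not counted. ZNF8 (gene 7554, chr19:58278955-58302791) stood at 11.3 and 11.7 CPM in control, 7.81 and 7.35 CPM in shCBX8-1, and 7.77 and 9.16 CPM in shCBX8-2. Its log2 fold change was -0.52 ± 0.12 (SE, edgeR adjusted p = 0.0552). ZNF581 (gene 51545, chr19:55635003-55645623) stood at 39.1 and 40.1, then 27.5 and 32.0, and then 31.4 and 27.2 CPM, a log2 fold change of -0.42 ± 0.11 (SE, edgeR adjusted p = 0.0635). Neither passed, but both were called by DESeq2 (adjusted p = 0.0155 and 0.00883) and with the GC trend of each library removed (edgeR adjusted p = 0.0284 and 0.0178). With other scaling, no low-count filter, the replicate number as a block, only the libraries compared or no repeated accessions, neither was called.

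ZNF224, a repressor of the aldolase A gene, also had every knockdown library below both controls, with 14.3 and 14.6 CPM in control against 8.70 to 11.6 CPM (log2 fold change -0.45 ± 0.14, edgeR adjusted p = 0.108). ZNF473, a factor in the processing of histone pre-mRNA, and ZNF628 had values in the other direction. ZNF473 stood at 9.48 and 9.43 CPM in control and 10.7 to 13.2 CPM in knockdown (log2 fold change 0.34 ± 0.11, edgeR adjusted p = 0.116). ZNF628 stood at 12.3 and 11.6 CPM in control and 12.7 to 18.5 CPM in knockdown (log2 fold change 0.40 ± 0.13, edgeR adjusted p = 0.115). ZNF569, the other of the 6, is described with shCBX8-2.

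In shCBX8-1, the group with less CBX8, no member passed either. Of 162 members 0 were called by edgeR, where 2.47% of all genes tested were called (1.34% higher and 1.13% lower), and 8 had an unadjusted p under 0.05 (4 higher and 4 lower), or 4.94% against 17.3% of all genes. DESeq2 called 2 members and 1416 genes in all. The members' median log2 fold change was 0.07 against -0.01 over all genes, and 56 of 162 (34.6%) lay below 0, against 51.4% of all genes. Both shCBX8-1 libraries were above both controls for 46 members, or 28.4%, where 28.4% of all genes tested were so, and below both for 19 members, or 11.7%, against 29% of all genes. Of the 6 members with the smallest p, ZNF8 and ZNF581 are given above.

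Among the others, ZNF558 stood at 14.1 and 13.3 CPM in control and 7.94 and 10.5 CPM in shCBX8-1 (log2 fold change -0.57 ± 0.19, edgeR adjusted p = 0.185). ZNF317 stood at 26.3 and 26.1 against 19.7 and 21.7 CPM (log2 fold change -0.34 ± 0.11, edgeR adjusted p = 0.198). ZNF675, known to bind TRAF6, stood at 4.22 and 4.09 against 5.38 and 7.38 CPM (log2 fold change 0.62 ± 0.21, edgeR adjusted p = 0.19). In each of these the shCBX8-1 and control libraries did not overlap, but the difference did not pass. Such separation was common, with both shCBX8-1 libraries above both controls in 28.4% of all genes tested and below both in 29%.

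Among tested members, ZNF177 was the one with 0 counts in both controls and counts in knockdown. It had 0 estimated counts in both control libraries, 33 and 36 in shCBX8-1, and 0 in both shCBX8-2 libraries. Against a floor of 3 counts over the control group this was at least 23.4-fold higher (edgeR adjusted p = 0.0948, not passed). ZNF177 overlaps the read-through gene ZNF559-ZNF177, which had 46 and 51 counts in control, 79 and 81 counts in shCBX8-1, and 0 and 12 counts in shCBX8-2, so how counts were split between the pair is uncertain. Their sum was 46 and 51, then 112 and 117, and then 0 and 12 counts, with no overlap between the 3 groups. The share of all genes whose 3 groups separated in this way was not counted. A second read-through pair had counts that moved from one name to the other. ZNF761, chosen after its values were seen, had 508 and 474 counts in control, 499 and 563 counts in shCBX8-1, and 25 and 357 counts in shCBX8-2. The read-through ZNF765-ZNF761 had 557 counts in the library with 25 and at most 120 in the others. The sum of this pair was 466 to 594 counts in every library.

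In shCBX8-2 most tested members lay below control. Their median log2 fold change was -0.22 against -0.04 over all genes tested, and 111 of 162 (68.5%) lay below 0. That share was 54.4% over all genes tested and 60.9% over ZNF genes on other chromosomes. The members' median was -0.13 without control replicate 1 and -0.14 without shCBX8-2 replicate 1. This comparison shares its control libraries with that of shCBX8-1. Of the 162 members 1 rose and 3 fell, 4 in all, where 12.7% of all genes tested were called (6.03% higher and 6.66% lower). With no adjustment of p, 28 members were under 0.05 (17.3%), 5 higher and 23 lower, against 29.3% of all genes (2313 higher and 2691 lower). Both shCBX8-2 libraries were below all 4 other libraries for 44 members, or 27.2%, where 18.8% of all genes tested were so. They were above all 4 for 7 members, or 4.32%, against 16.6%.

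The 3 that fell were ZNF529, ZNF569 and ZNF561. ZNF529 (gene 57711, chr19:36543613-36605543) stood at 1.96 and 1.39 CPM in control, 2.13 and 2.00 CPM in shCBX8-1, and 0.284 and 0.588 CPM in shCBX8-2. Both shCBX8-2 libraries lay far below the other 4, and the gene fell by 1.94 ± 0.43 on the log2 scale against control (SE, edgeR adjusted p = 0.0321). ZNF569 (gene 148266, chr19:37411157-37469265) stood at 2.77 and 2.11, 2.44 and 2.40, and 0.536 and 0.890 CPM, and fell by 1.77 ± 0.34 (SE, edgeR adjusted p = 0.0213). ZNF561 (gene 93134, chr19:9607329-9621232) stood at 12.05 and 12.4, 14.9 and 12.1, and 7.94 and 6.71 CPM, and fell by 0.74 ± 0.16 (SE, edgeR adjusted p = 0.0288). The riser, ZNF787 (gene 126208, chr19:56087366-56121295), stood at 62.9 and 52.5, 63.7 and 58.8, and 88.9 and 76.3 CPM, and rose by 0.52 ± 0.12 (SE, edgeR adjusted p = 0.0383). All 4 calls ended when any 1 control or shCBX8-1 library was left out, and no member then passed. More members were called when either shCBX8-2 library was left out. Those fits leave 1 library in a group, and the number of calls over all genes swung widely in them as well. With the GC trend of each library removed 14 members were called, these 4 among them. The share over all genes in that fit is not given here.

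ZNF628 and ZNF420 came next by p. ZNF628 stood at 18.5 and 16.8 CPM in shCBX8-2 (log2 fold change 0.56 ± 0.15, edgeR adjusted p = 0.0515). ZNF420, a KRAB zinc finger protein known to restrain p53, had 12 and 18 counts in control, 18 and 11 counts in shCBX8-1, and 0 and 0 counts in shCBX8-2. Against a floor of 3 counts over the group it was at least 9.48-fold lower than control (edgeR adjusted p = 0.0523).

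**Figure D2:**
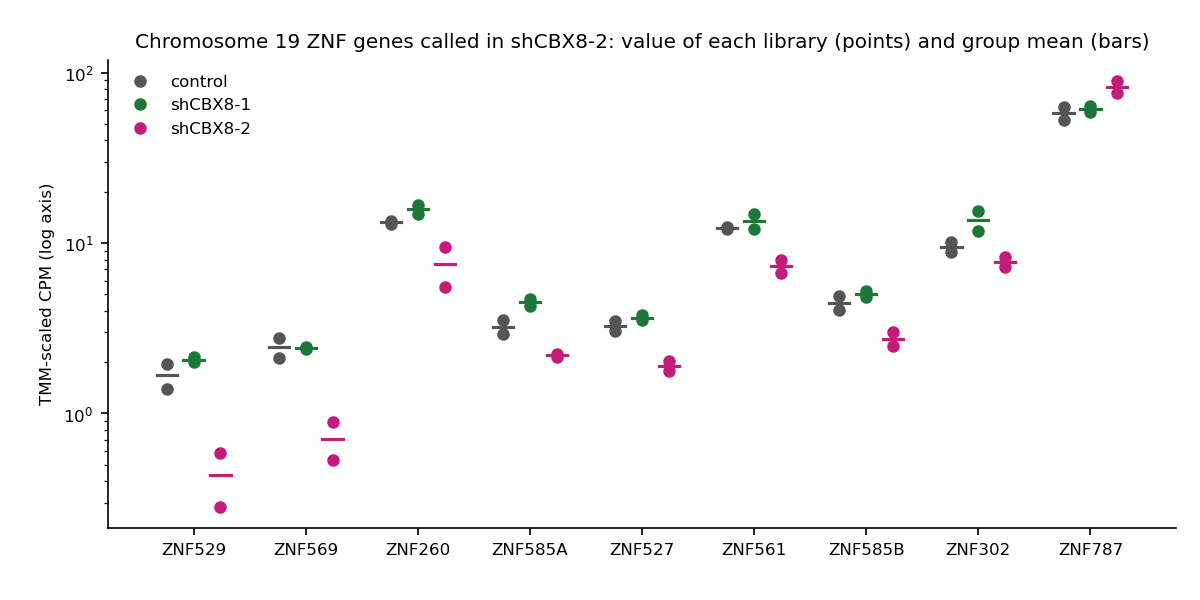
Level of the 9 chromosome 19 ZNF genes called in shCBX8-2, against control or against shCBX8-1, in each of the 6 libraries (points, TMM-scaled CPM on a log axis) with the group means as bars. For the first 8 genes both shCBX8-2 libraries lie below the other 4, and for ZNF787 both lie above. The genes were picked by these calls, so this separation largely follows from the choice.

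The promoters of the 4 genes called in shCBX8-2 against control are shown because these genes passed in the same group. ZNF529 and ZNF569 lie in 1 position cluster and the others in 2 more. Each runs from 250 bases before to 50 after a RefSeq start on the minus strand of GRCh38.p14, 5′ to 3′. Capitals mark CCGGAAG (an ETS core), GGGCGG (a GC box), ACTACA and TGACGTCA (a CRE), on either strand.
ZNF529 (chr19:36605208-36605507): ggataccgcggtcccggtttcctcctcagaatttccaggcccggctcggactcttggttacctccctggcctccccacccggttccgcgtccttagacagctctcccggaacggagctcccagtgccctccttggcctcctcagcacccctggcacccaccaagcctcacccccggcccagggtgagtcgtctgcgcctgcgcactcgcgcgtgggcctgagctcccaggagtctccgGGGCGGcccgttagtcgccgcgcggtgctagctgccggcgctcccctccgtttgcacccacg
ZNF569 (chr19:37467395-37467694): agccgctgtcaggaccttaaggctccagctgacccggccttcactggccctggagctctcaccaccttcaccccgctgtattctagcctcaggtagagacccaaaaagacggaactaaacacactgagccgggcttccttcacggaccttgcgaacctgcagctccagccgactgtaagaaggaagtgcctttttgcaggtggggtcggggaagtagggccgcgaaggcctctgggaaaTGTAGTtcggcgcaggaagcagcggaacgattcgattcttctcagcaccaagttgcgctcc
ZNF561 (chr19:9621183-9621482): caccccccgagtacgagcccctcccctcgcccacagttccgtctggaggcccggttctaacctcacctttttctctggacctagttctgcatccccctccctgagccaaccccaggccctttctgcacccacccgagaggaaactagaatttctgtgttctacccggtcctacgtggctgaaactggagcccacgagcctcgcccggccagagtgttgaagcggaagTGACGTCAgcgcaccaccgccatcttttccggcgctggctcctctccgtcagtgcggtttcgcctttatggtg
ZNF787 (chr19:56121246-56121545): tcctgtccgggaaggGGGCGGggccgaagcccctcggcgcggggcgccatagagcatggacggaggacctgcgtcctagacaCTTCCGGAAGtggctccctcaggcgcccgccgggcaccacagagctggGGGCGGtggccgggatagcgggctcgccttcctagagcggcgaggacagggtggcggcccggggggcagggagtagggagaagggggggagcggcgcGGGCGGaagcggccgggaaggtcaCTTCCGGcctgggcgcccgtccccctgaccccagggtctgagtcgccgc
ZNF787 holds 3 matches to CCGGAAG, of which 2 overlap on opposite strands, and 3 to GGGCGG, and it has 32 CG dinucleotides. ZNF529 has 1 match to GGGCGG and 28 CG, ZNF569 has 1 match to ACTACA and 17 CG, and ZNF561 has 1 match to TGACGTCA and 20 CG. These letters are a description of the window and not shown to be sites.

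Across the family, promoter windows were listed for 216 of the 246 genes, and the first listed window of each was searched on both strands. CCGGAAG was present in 45.4% of members, 34.4% of 212 ZNF genes elsewhere and 14.5% of 15366 protein-coding genes. CCAAT was present in 53.7% of members against 36.6% of all, and TATAAA in 1.85% against 9.53%. Of the 7 motifs searched, the share differed most between tested members and those at 0 for 2. ACTACA was present in 34.5% of 148 tested members and 7.55% of the 53 at 0 in all libraries, against 8.62% of all protein-coding genes. GGGCGG was present in 60.1% of tested members and 86.8% of those at 0, against 59.3% of all. The median number of CG dinucleotides per window was 21 in tested members, 17 in those at 0 and 22 in all protein-coding genes. CACGTG and TGACGTCA were each in under 5% of member windows, at 4.17 and 3.24%.

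The direct comparison of shCBX8-2 with shCBX8-1, whose fold changes do not use the control values, gave the largest number of calls in the family. Of 162 members 8 were lower in shCBX8-2 and 0 were higher, where 5.79% of all genes tested were called lower and 4.05% higher (9.84% in all). Of all members, 36 had an unadjusted p under 0.05 (22.2%), 33 of them lower and 3 higher, against 26.4% of all genes (2405 lower and 2110 higher). DESeq2 called 17 members lower and 1 higher, and 2830 genes in all. The members' median was -0.24 against -0.01 over all genes, and 114 of 162 (70.4%) lay below 0. That share was 51.5% over all genes tested and 59.6% over ZNF genes on other chromosomes. As in the comparison with control, 0 members remained called when any 1 control or shCBX8-1 library was left out or when only the libraries compared were fitted. With the replicate number as a block 3 were called, 2 of them among these 8.

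Of these 8 genes, 6 lie in cluster 9 (chr19:36182060-37779586), which holds 26 members, 17 of them tested. Besides ZNF529 and ZNF569, which fell by 2.24 ± 0.44 and 1.76 ± 0.34 on the log2 scale (SE, edgeR adjusted p = 0.026 and 0.0263), they were ZNF260, ZNF585A, ZNF527 and ZNF585B. ZNF260 (gene 339324, chr19:36510687-36528271), a cofactor of GATA4 in heart cells, stood at 13.5 and 13.0 CPM in control, 14.9 and 16.8 CPM in shCBX8-1, and 5.55 and 9.43 CPM in shCBX8-2. It fell by 1.08 ± 0.24 between the knockdown groups (SE, edgeR adjusted p = 0.0396). ZNF585A (gene 199704, chr19:37145540-37172695) stood at 3.56 and 2.91, 4.29 and 4.72, and 2.24 and 2.15 CPM, and fell by 1.04 ± 0.21 (SE, edgeR adjusted p = 0.0295). Its duplicate ZNF585B (gene 92285, chr19:37181579-37210536) stood at 4.92 and 4.03, 4.85 and 5.23, and 2.99 and 2.50 CPM, and fell by 0.88 ± 0.21 (SE, edgeR adjusted p = 0.0456). The pair are near relatives, so reads may have been split between them, but both were lowest in shCBX8-2.

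ZNF527 (gene 84503, chr19:37371099-37393066) stood at 3.47 and 3.06, 3.51 and 3.79, and 1.77 and 2.02 CPM, and fell by 0.95 ± 0.22 (SE, edgeR adjusted p = 0.042). The remaining 2 calls lie elsewhere, ZNF561 in cluster 2 (fell by 0.88 ± 0.16, edgeR adjusted p = 0.0213) and ZNF302 (gene 55900, chr19:34675979-34686396) in cluster 8. ZNF302, like ZNF585B outside the rule for named genes and chosen after its values were seen, stood at 10.2 and 8.86 CPM in control, 15.5 and 11.7 CPM in shCBX8-1, and 7.23 and 8.30 CPM in shCBX8-2, and fell by 0.81 ± 0.18 between the knockdown groups (SE, edgeR adjusted p = 0.0399). In all 8 genes both shCBX8-2 libraries were below the other 4, which held for 18.8% of all genes tested. The 8 were picked as lower than in shCBX8-1, so lying below those libraries largely follows from the choice.

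Most of cluster 9 lay below the other libraries in shCBX8-2. This cluster was singled out after its values were seen, and its members are neighbours, so they are not independent measurements. Of its 17 tested members 16 had a fold change below 0 against control, with a median of -0.70, where the 145 other members had a median of -0.18 and 65.5% below 0. Both shCBX8-2 libraries showed it, with a cluster median of -0.57 in replicate 1 and -0.58 in replicate 2 relative to the control mean, whereas the shCBX8-1 libraries stood at 0.12 and -0.01. For 12 of the 17 both shCBX8-2 libraries were below all 4 others, which held for 18.8% of all genes tested. The exception was ZNF565, named because it was the only one, at 2.04 and 1.75 CPM in control and 3.55 and 2.24 CPM in shCBX8-2. The most abundant member, ZNF146, had a log2 fold change of -0.12 ± 0.19 (edgeR adjusted p = 0.711).

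Other genes at that place were set beside them. In the span of cluster 9 the 2 tested protein-coding genes with other names are zinc finger genes as well. ZFP14 (gene 57677) stood at 4.79 and 5.72 CPM in control, 4.51 and 4.14 CPM in shCBX8-1, and 2.40 and 3.26 CPM in shCBX8-2, and fell by 0.90 ± 0.23 against control (SE, edgeR adjusted p = 0.0459). ZFP30 had a log2 fold change of -0.68 ± 0.37 (edgeR adjusted p = 0.271). In the 1000000 bases before the cluster, 38 other protein-coding genes had a median of 0.03, and in the same length after it 19 had a median of 0.20. Their median GC content was 60.7 and 60.4%, against 39.9% for the cluster's tested members. Strand is not given for the counting, and antisense genes such as ZNF529-AS1 and ZNF566-AS1 lie in the cluster, named for their place, so reads of a gene and its antisense partner cannot be told apart there.

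**Figure D3:**
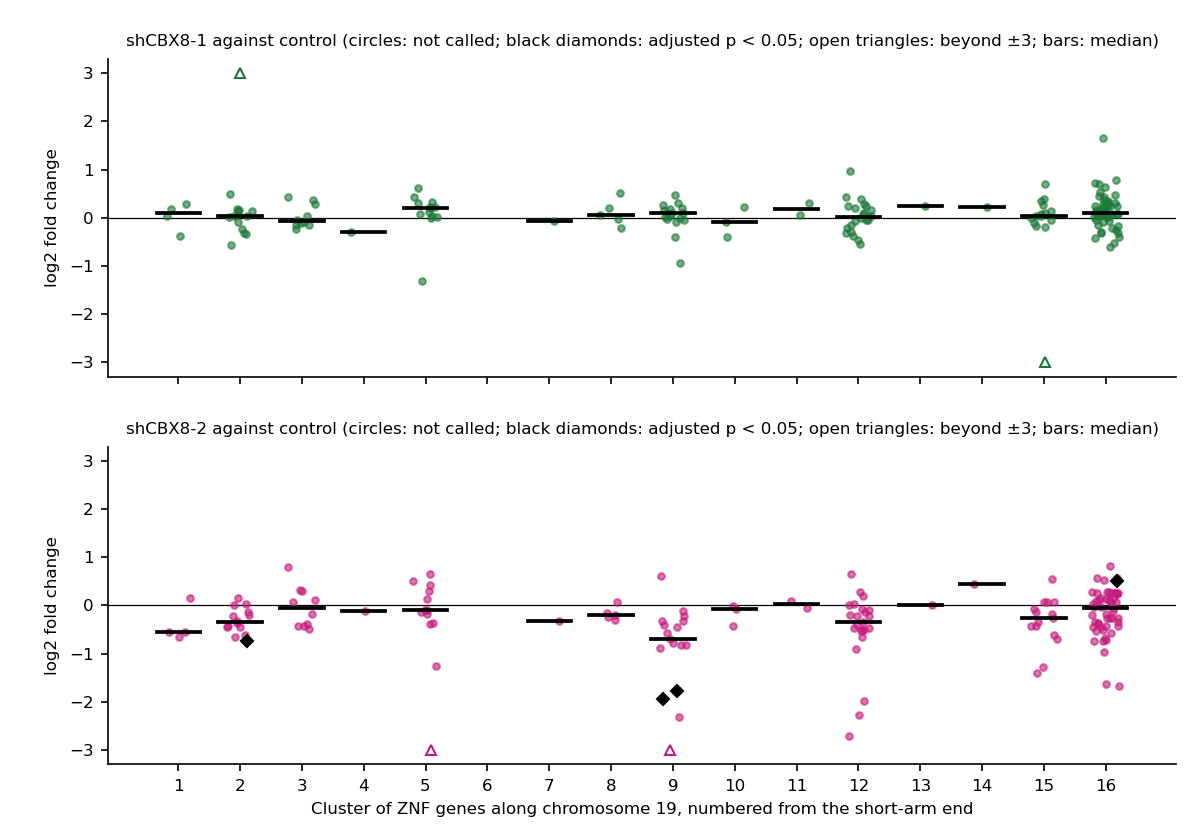
Log2 fold change of each tested chromosome 19 ZNF gene against control (y axis) by position cluster (x axis), for shCBX8-1 above and shCBX8-2 below, with cluster medians as bars, called genes as black diamonds and values beyond the axis as open triangles at its edge. In shCBX8-2 the median of cluster 9 is -0.70, and its members are low as a group, whereas in shCBX8-1 its median is 0.09. Both panels share the control libraries.

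Among the other clusters with at least 10 tested members, the medians in shCBX8-2 against control were -0.34 in cluster 2, -0.35 in cluster 12 and -0.27 in cluster 15. They were -0.05 in cluster 3, -0.10 in cluster 5 and -0.05 in cluster 16. In shCBX8-1 the same 6 clusters ranged from -0.07 in cluster 3 to 0.19 in cluster 5. Cluster 5 differed between the shCBX8-2 libraries, with a median of -0.12 in replicate 1 and 0.36 in replicate 2. Its tested members have a median GC content of 37.8%. Of the smaller clusters, cluster 1 had the lowest median in shCBX8-2 against control, at -0.55, with 3 of its 4 tested members below 0. Its medians relative to the control mean were -0.75 in shCBX8-2 replicate 1 and -0.24 in replicate 2.

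The base composition of these transcripts moved with the libraries. Tested members have a median GC content of 43.9%, against 50.03% over all genes tested. In shCBX8-2 replicate 1 the deviation of a gene from the mean of all libraries had a Spearman correlation with GC content of 0.489 over 161 members and of 0.336 over 16192 genes tested. In replicate 2 these were 0.0137 and -0.241. In shCBX8-1 they were -0.132 and -0.0386 in replicate 1 and -0.370 and -0.158 in replicate 2. In control they were -0.242 and -0.0944 in replicate 1 and -0.115 and -0.0154 in replicate 2. These correlations are across genes within a library, which are not independent replicates.

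Members were set beside other genes in the same range of GC content, in quartiles cut on the members. In the quartile with the least GC (33.7 to 40.7%), members had a median of -0.56 and the 2339 other genes -0.46 in shCBX8-2 replicate 1, relative to the control mean. In replicate 2 the values were -0.08 and 0.05. In the second quartile (up to 43.9%) members stood at -0.39 and -0.28 in replicates 1 and 2, and other genes at -0.14 and 0.05. In the third (up to 48.1%) members stood at -0.30 and -0.24, and other genes at -0.04 and -0.01. In the quartile with the most GC (48.1 to 71.1%), members stood at 0.18 and -0.01 and other genes at 0.08 and -0.06, so members lay above them in both libraries. In shCBX8-1 members there stood at 0.15 and 0.028 and other genes at -0.002 and -0.018. That range is wide, so members and other genes in it may differ in GC content. With the GC trend of each library removed, the members' median in shCBX8-2 against control was -0.14 and the median of cluster 9 was -0.60. In that fit 8 members of the cluster were called lower in shCBX8-2 against shCBX8-1, and the share over all genes is not given here.

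**Figure D4:**
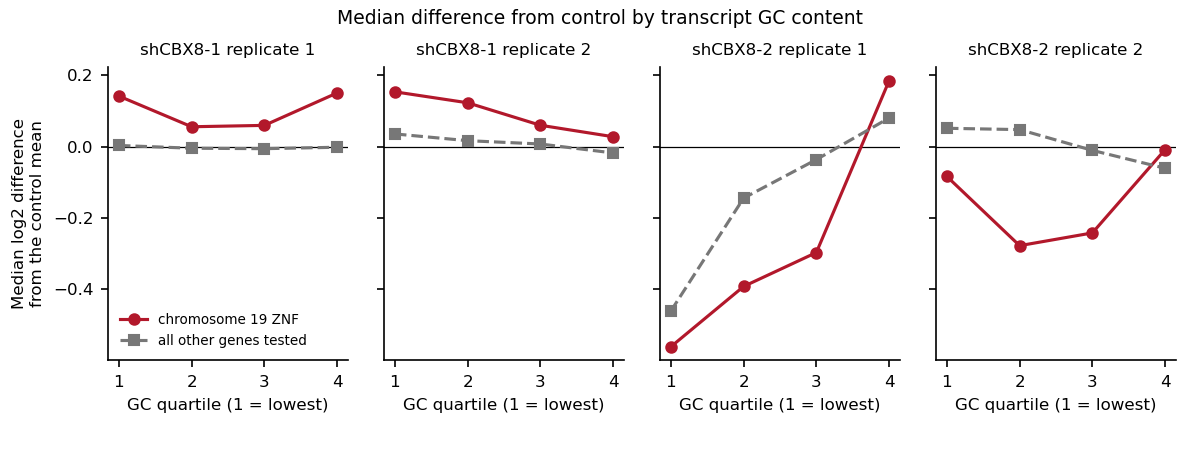
Median log2 difference from the control mean (y axis) by quartile of transcript GC content of the tested members (x axis, 1 is lowest), for each knockdown library, with chromosome 19 ZNF genes as circles and all other genes tested as squares. In the lowest quartile members and other genes stand at -0.56 and -0.46 in shCBX8-2 replicate 1 and at -0.08 and 0.05 in replicate 2, and in the highest quartile members lie above the other genes in both.

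The partners of KRAB zinc finger proteins were measured from a list of 39 co-repressor and heterochromatin genes, all of which were tested. In knockdown against control 2 rose, 0 fell and 37 did not pass, with a median of 0.01, where 6.82% of all genes tested were called. At an unadjusted p under 0.05, 5 were higher and 1 lower (15.4%, against 23.7% of all genes). DESeq2 called 5, all higher, and 2342 genes in all. In shCBX8-1 1 rose and in shCBX8-2 3 rose, where 2.47 and 12.7% of all genes were called, with 0 lower in either by edgeR. At an unadjusted p under 0.05, 5 were higher and 2 lower in shCBX8-1 (17.9%, against 17.3% of all genes). In shCBX8-2, 9 were higher and 1 lower (25.6%, against 29.3%). DESeq2 called 3 higher and 1 lower in shCBX8-1, and 6 higher and 0 lower in shCBX8-2, where it called 1416 and 3416 genes in all. CBX1, which codes for heterochromatin protein 1 beta, stood at 123 and 124 CPM in control, 167 and 170 CPM in shCBX8-1, and 159 and 162 CPM in shCBX8-2, and rose by 0.41 ± 0.06 (SE, edgeR adjusted p = 0.014). It was called in each group on its own. DNMT1, the maintenance DNA methyltransferase, stood at 118 and 117, 143 and 142, and 186 and 163 CPM, and rose by 0.42 ± 0.07 (SE, edgeR adjusted p = 0.0237).

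UHRF1, which guides DNMT1 to newly copied DNA, had a log2 fold change of 0.30 ± 0.07 (edgeR adjusted p = 0.0509). SUV39H1, an H3K9 methyltransferase, had one of 0.35 ± 0.09 (edgeR adjusted p = 0.0751) and passed in shCBX8-2 alone (0.46 ± 0.11, edgeR adjusted p = 0.0343). TRIM28, named for its role, stood at 620 and 646 CPM in control and 695 to 827 CPM in knockdown (log2 fold change 0.25 ± 0.08, edgeR adjusted p = 0.112). SETDB1, likewise, had a log2 fold change of 0.01 ± 0.08 (edgeR adjusted p = 0.963).

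Zinc finger genes of chromosome 19 with other names were 20 in number, of which 10 were tested and 6 were at 0 in all libraries. None passed in knockdown against control by edgeR, where 6.82% of all genes tested were called. There 2 of the 10 had an unadjusted p under 0.05, against 23.7% of all genes, and DESeq2 called 0. In shCBX8-2 2 of the 10 fell, ZFP14 and ZFP28, where 6.66% of all genes tested were called lower and 6.03% higher. ZFP28 (gene 140612) stood at 2.41 and 2.08 CPM in control, 1.98 and 2.24 CPM in shCBX8-1, and 0.804 and 1.03 CPM in shCBX8-2, and fell by 1.29 ± 0.29 (SE, edgeR adjusted p = 0.0329). It was also lower than in shCBX8-1 (fell by 1.20 ± 0.29, edgeR adjusted p = 0.0486). ZSCAN22 had a log2 fold change of 0.48 ± 0.24 in knockdown against control (edgeR adjusted p = 0.289).

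ZNF genes on other chromosomes, of which 230 of 261 were tested, had a median of -0.10 in shCBX8-2 against control and of -0.02 in shCBX8-1. The 851 other tested protein-coding genes of chromosome 19 had a median of 0.08 in shCBX8-2 and of 0.02 in shCBX8-1. The medians of the 162 members were -0.22 and 0.07.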

How the data were processed

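RNA of 6 A549 libraries was sequenced by the authors, and the deposited table holds estimated counts per RefSeq transcript. The values are whole numbers, so rounding changed nothing. HISAT2 2.2.1, StringTie 2.2.1, DESeq2 1.34.0 and hg38 are named per the submitters' processing notes. The sources used here do not give their order and settings or the treatment of strand and of reads that fit several places, so near-identical relatives, overlapping genes and antisense genes are uncertain.

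Of 84787 transcripts, 83963 were matched to genes through RefSeq accessions (GRCh38.p14) and 333 more through GENCODE v29, and counts were summed per gene. Repeated accessions with a suffix (26 of the 940 member entries, in 8 genes) were included. Genes with at least 10 counts by edgeR's filterByExpr, and a total of at least 15, were tested (17107). edgeR 4.0.16 (R 4.3.3, limma 3.58.1) fitted 1 quasi-likelihood model over the 3 groups with trimmed-mean scaling and 3 residual degrees of freedom. The median absolute log2 difference between the libraries of a group was 0.129 in control, 0.128 in shCBX8-1 and 0.240 in shCBX8-2. The SE and p of shCBX8-2 thus borrow from less variable groups. The biological coefficient of variation was 19.1%. Adjusted p-values are Benjamini-Hochberg over all genes tested, with calls under 0.05. DESeq2 1.42.0 was the alternative tool. GC content and length are means over GENCODE v29 transcripts, for 243 of the 246 members, and coordinates and promoters are from RefSeq GRCh38.p14. The statistics were tested on simulated data. Libraries of a group differed by more than counting error (chi-square per gene 15.4 to 72.2), so none was a copy of another library's counts. Whether they were technical duplicates cannot be told from this.

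The members, gene lists and tests were chosen with earlier results of these data known, and the promoter motifs after looking at a larger set. Named genes were those that passed with the largest changes, up to 6 by smallest p where fewer passed, the 3 highest and 3 lowest levels per length, up to 4 per background list by p, and CBX8. The planned split by protein patterns (KRAB box, number of fingers) was not made, because no protein table was used here. Alternatives were other scaling, no filter, each library left out, the replicate number as a block, only the libraries compared, no repeated accessions, the GC trend removed, symbols without a letter and a 2-fold minimum. The level of 1 marker gene is not reported here.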

Additional observations from a re-analysis of the deposited data

Results flagged for a closer look

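For 8 of 162 tested chromosome 19 ZNF genes the 2 knockdown groups differed, by edgeR's quasi-likelihood test of shCBX8-2 against shCBX8-1 (adjusted p under 0.05), and all 8 were lower in shCBX8-2. Of all genes tested 9.84% were called. In cluster 9 the log2 differences were -2.24 for ZNF529, -1.76 for ZNF569, -1.08 for ZNF260, -1.04 for ZNF585A, -0.95 for ZNF527 and -0.88 for ZNF585B. Outside it they were -0.88 for ZNF561 and -0.81 for ZNF302. CBX8 itself was higher in shCBX8-2 than in shCBX8-1, by 1.02 ± 0.15 on the log2 scale (SE, edgeR adjusted p = 0.0114). The 8 calls were kept with DESeq2 and with the GC trend of each library removed. Of the 8, 4 were kept without the low-count filter, 2 with the replicate number as a block, and 0 without any 1 control or shCBX8-1 library or when only the libraries compared were fitted.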

How the results depend on the processing

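Counts of members called are given in the order knockdown, shCBX8-1 and shCBX8-2 against control, then shCBX8-2 against shCBX8-1, and were 0, 0, 4 and 8 as reported. Of all genes tested, 6.82, 2.47, 12.7 and 9.84% were called in that fit. Members called were 3, 2, 13 and 18 with DESeq2, where 2342, 1416, 3416 and 2830 genes were called in all. With the GC trend removed they were 4, 2, 14 and 18. With the GC trend removed and the replicate block they were 3, 0, 11 and 12. With the replicate block alone they were 0, 0, 3 and 3. Across genes, the deviations of same-numbered libraries from their group means had correlations of -0.0164 to 0.0183. These values show no shared shift, but they cannot tell whether the samples were paired. Fitting only the libraries compared gave 0, 6, 0 and 0. Without the low-count filter they were 0, 0, 3 and 4, and with at least a 2-fold change 0, 0, 2 and 4. For the GC, block, libraries-compared, filter and 2-fold settings the share called over all genes is not given here. Leaving out 1 library at a time gave 0 to 18, 0 to 6, 0 to 35 and 0 to 32. The lows of the last 2 ranges came without any 1 control or shCBX8-1 library, and the highs without shCBX8-2 replicate 2. In those fits the lone library is assumed to vary like the other groups, and over all genes the knockdown calls ranged from 1 to 4470. The members' median was -0.14 in shCBX8-2 and -0.17 in the direct comparison with the GC trend removed, and over left-out libraries it ranged from 0.057 to 0.15 in shCBX8-1, -0.32 to -0.13 in shCBX8-2 and -0.35 to -0.14 in the direct comparison. The median of cluster 9 in shCBX8-2 ranged from -0.72 to -0.50. Of the values of named members and CBX8 under the alternatives, 857 kept their side of the threshold, 70 gained and 76 lost the call, and 0 reversed. The tested members had a median level of 4.03 CPM with 2 libraries a group, which limits their precision. Of the 84 members not tested, 61 had 0 counts in all libraries, and the cause was not tested.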
